A study of Mus musculus with 28 samples.

Results

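Primordial germ cells (PGCs) were examined in embryoid bodies (EBs), floating clusters into which mouse embryonic stem cells grow as they differentiate, as the nuclei that the deposited cell type annotation calls PGC. There were 684 of them among 31596 annotated nuclei (2.16%), and all 684 lay in the 12 libraries of days 3.5 to 5, which held 27135 nuclei. The annotation set PGCs apart by label transfer from a mouse gastrulation atlas, and the 684 cells were exactly the cells whose first atlas label was PGC. Every EB came from 1 line derived from E14 embryonic stem cells, with a Runx1Venus reporter and a degron and mCherry tag on both copies of Eomes. EBs were cultured with BMP4, VEGF and Activin A and were treated from day 3 to day 4. WT cultures were given DMSO, and Eomes KD cultures 100 nM of dTAG-13, which removes the tagged EOMES protein. Each condition had 6 libraries: days 3.5 and 4 were each collected in experiments 1 and 2, day 4.5 in experiment 1 and day 5 in experiment 2. WT cells therefore also carry the tagged Eomes, and the libraries of days 4.5 and 5 were taken after the treatment window. A replicate here is a library, and p-values measure the spread between libraries of 1 cell line.

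PGCs are the founders of the germline. In the mouse embryo they arise from proximal posterior epiblast in response to BMP signals, under the regulators Prdm1, Prdm14 and Tfap2c, and gather at the base of the allantois beside extraembryonic mesoderm. They keep or regain pluripotency genes such as Pou5f1 and switch on germ cell genes such as Dppa3 and Dnd1, the last of which encodes an RNA-binding protein needed for germ cell survival. EOMES, a T-box protein, regulates transcription in the primitive streak, next to which PGCs form. The levels of Dppa3, Dnd1, Pou5f1 and Prdm1 were not analysed here, since the table used holds no values per gene, so the label was examined only through the other annotations of the same cells.

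No PGC was called in the 2 WT libraries of day 3, both of experiment 2 (0 of 2781 and 0 of 1680 cells). With 3 cells taken as the limit over these 4461 cells, the share would be 0.0672%. That limit pools the cells of both libraries and covers counting error only. Between days 3.5 and 5, 350 PGCs came from WT and 334 from Eomes KD. Annotated cells per library ranged from 445 to 7391, and median RNA counts per cell from 8207 to 23017. Experiment 1 was the deeper at both shared days in both conditions. The WT library of day 4.5 held 3 PGCs, too few for a library median to enter a test. It was left out of every test but those of shares, and its other values are given as those of 3 cells. Cell barcodes recurred between libraries in 421 cases; 21 PGCs carried such a barcode, and no barcode was PGC in more than 1 library.

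PGCs made up a few percent of the EBs at days 3.5 and 4 and about 1% afterwards, and their share did not separate WT from Eomes KD. At day 3.5, the PGC share of annotated cells was 2.87% (95% Wilson interval 2.27 to 3.60) and 2.10% (1.79 to 2.45) in WT, and 2.56% (1.94 to 3.38) and 4.32% (3.61 to 5.16) in Eomes KD, in experiments 1 and 2. The conditions overlapped, with the Eomes KD library of experiment 2 the highest of all 12. At day 4, the shares were 1.80% (1.23 to 2.63) and 2.98% (2.41 to 3.68) in WT, and 2.13% (1.51 to 3.01) and 3.64% (3.02 to 4.38) in Eomes KD. Within each experiment the Eomes KD value was the higher, but by less than the 2 WT libraries differed from each other. At day 4.5, 3 of 445 WT cells (0.674%, 0.230 to 1.96) and 22 of 1722 Eomes KD cells (1.28%, 0.845 to 1.93) were PGCs. At day 5, these were 12 of 739 WT cells (1.62%, 0.931 to 2.82) and 10 of 1177 Eomes KD cells (0.850%, 0.462 to 1.56). The intervals overlap at both days and cover counting error only.

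**Figure D1:**
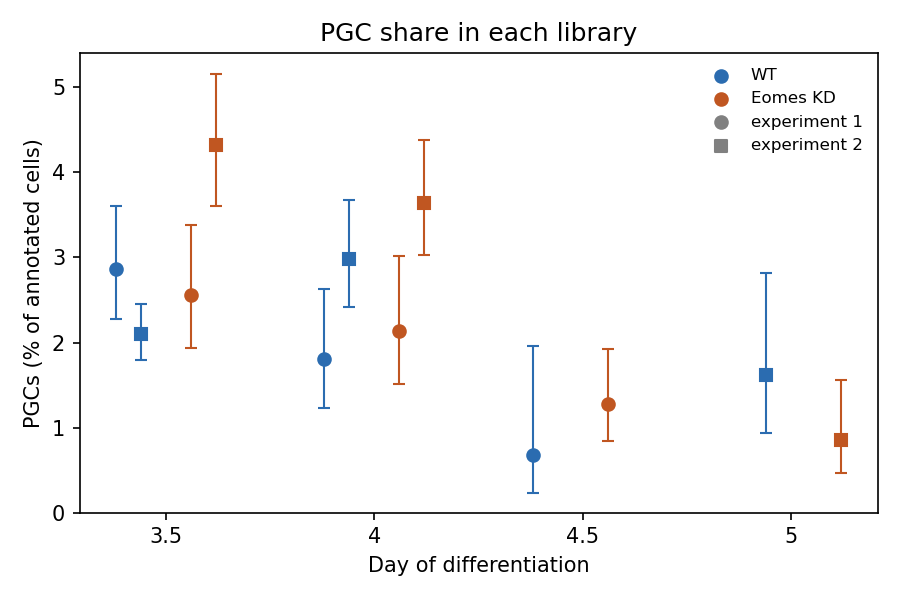
PGCs as a percent of annotated cells in each library (vertical axis) by day of differentiation, with WT in blue, Eomes KD in orange, experiment 1 as circles and experiment 2 as squares; bars are 95% Wilson intervals. The 8 libraries of days 3.5 and 4 lie between 1.80% and 4.32%, those of days 4.5 and 5 between 0.674% and 1.62%, and the conditions overlap.

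Over all days, the PGC share in Eomes KD was 0.26 higher than in WT on the log2 scale (SE 0.40), with an adjusted p of 0.528 in edgeR's quasi-likelihood test with Benjamini-Hochberg adjustment over the 12 cell types. Of those 12 types, 8 (66.7%) passed the threshold of 0.05 in the same test, and PGCs were among the 4 that did not. Of the types most like PGCs by origin or place in the embryo, posterior mesoderm was 2.49 higher in Eomes KD (SE 0.40, edgeR adjusted p = 2.16e-05) and allantois precursors 1.28 (SE 0.48, edgeR adjusted p = 0.0241), and the primitive streak differed by 0.59 (SE 0.40, edgeR adjusted p = 0.207). Early-Mes EOi, to whose clusters most PGCs belonged, was 1.98 higher (SE 0.46, edgeR adjusted p = 0.00063). The PGC difference was not tested against theirs. By day, the log2 difference was 0.48 (SE 0.54) at day 3.5, 0.27 (SE 0.55) at day 4, 0.92 (SE 1.01) at day 4.5 and -0.93 (SE 0.89) at day 5, with adjusted p-values of 0.653, 0.828, 0.653 and 0.576 by edgeR. None of the 48 tests of a type on a day passed with edgeR (0%), where 13 had an unadjusted p under 0.05 and DESeq2 called 10. No type showed an interaction of day and condition by edgeR (0% of 12, also 0 at an unadjusted p under 0.05); for PGCs, the adjusted p was 0.996.

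The direction of this comparison over days and at days 3.5 and 4 depended on the total against which PGCs are counted. Without the yolk sac path types (Early-Mes EOd, HE precursors, HE and blood progenitors; HE is hematoendothelium) in the total, PGCs at day 3.5 were 10.6% and 6.63% in WT and 2.92% and 4.53% in Eomes KD. The conditions then did not overlap at day 3.5, with WT the higher. The types left out were themselves lower in Eomes KD over days (log2 -2.92, -2.26, -2.20 and -8.28, in the order named). At day 3.5 the total fell from 2443 to 662 and from 7391 to 2338 cells in WT. In Eomes KD it fell from 1875 to 1644 and from 2663 to 2537. The direction on this total at day 3.5 thus follows from which types were left out, and it is no separate evidence about PGCs. On that total, the log2 difference was -1.19 at day 3.5 (edgeR adjusted p = 0.202) and -0.70 over days (edgeR adjusted p = 0.199). It was -0.29 at day 4, and kept its direction at days 4.5 and 5 (0.34 and -1.28). EOi and EOd are the codes that the annotation gives to its 2 early mesoderm types. With only the 350 PGCs whose label score was 0.6 or more, the log2 difference over days was -0.12 (edgeR adjusted p = 0.754).

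Along the time course, the PGC share did not pass the test at any step. The steps from day 3.5 to day 4 were -0.04 on the log2 scale in WT (SE 0.55) and -0.25 in Eomes KD (SE 0.54). From day 4 to day 4.5, the share in WT differed by -1.83 (SE 0.91, edgeR adjusted p = 0.156) and in Eomes KD by -1.18 (SE 0.72, edgeR adjusted p = 0.286). From day 4.5 to day 5 the differences were 1.26 (SE 1.03) in WT and -0.59 (SE 0.86) in Eomes KD. Over all types, 38.9% of the 36 tested steps in WT and 30.6% of the 36 in Eomes KD passed with edgeR. Days 4.5 and 5 come from different experiments, so that day and experiment cannot be told apart there. The step from day 4 to day 4.5 sets both experiments against experiment 1 alone. With the experiment as replicate block, that step was -1.57 in WT and -0.93 in Eomes KD.

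The extended atlas annotation, which uses finer labels, gave the same call to 645 of the 684 PGCs (94.3%). Its labels come from the same nearest atlas cells as the call that chose the PGCs, so this level is a description. Of the other 39 cells, 26 were called nascent mesoderm, the mesoderm that has just left the primitive streak, and 24 of these 26 were from day 3.5. Caudal epiblast and lateral plate mesoderm had 5 PGCs each. A further 40 cells were PGC by the extended annotation only, with first label scores of 0.24 to 0.52 (median 0.40), so both annotations called nearly equal numbers of PGCs (684 and 685). The share of PGCs with the same extended call was 92.9% and 96.1% in WT at day 3.5, and 93.8% and 87.8% in Eomes KD, in experiments 1 and 2. At day 4 it was 100% and 97.6% in WT, and 96.8% and 93.5% in Eomes KD, where the conditions did not overlap. At day 5 every PGC of both libraries had it. The Eomes KD minus WT difference averaged -2.46 percentage points over days 3.5, 4 and 5 (exact permutation test within days over 10 libraries, two-sided, p = 0.167, smallest possible p 0.0278).

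The label score is the fraction of the 25 nearest atlas cells that carry the called label. For PGCs it was higher at later days, from about a bare majority to unanimity. At day 3.5, the library medians were 0.56 and 0.52 in WT and 0.52 and 0.48 in Eomes KD, in experiments 1 and 2. At day 4 they were 0.96 and 0.80 in WT and 0.84 and 0.60 in Eomes KD. The 3 libraries of days 4.5 and 5 with 10 or more PGCs had a median of 1.00, as did the 3 PGCs of WT day 4.5. The days did not overlap, apart from the tie of days 4.5 and 5, while the medians of all other cells lay at 0.64 to 0.80 at day 3.5, 0.68 to 0.76 at day 4 and 0.80 to 0.96 later. PGCs thus scored below the rest of every library at day 3.5 and above it in 3 of 4 libraries at day 4 and in the libraries of days 4.5 and 5. The score comes from the call that chose these cells, so these levels are a description with no test.

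**Figure D2:**
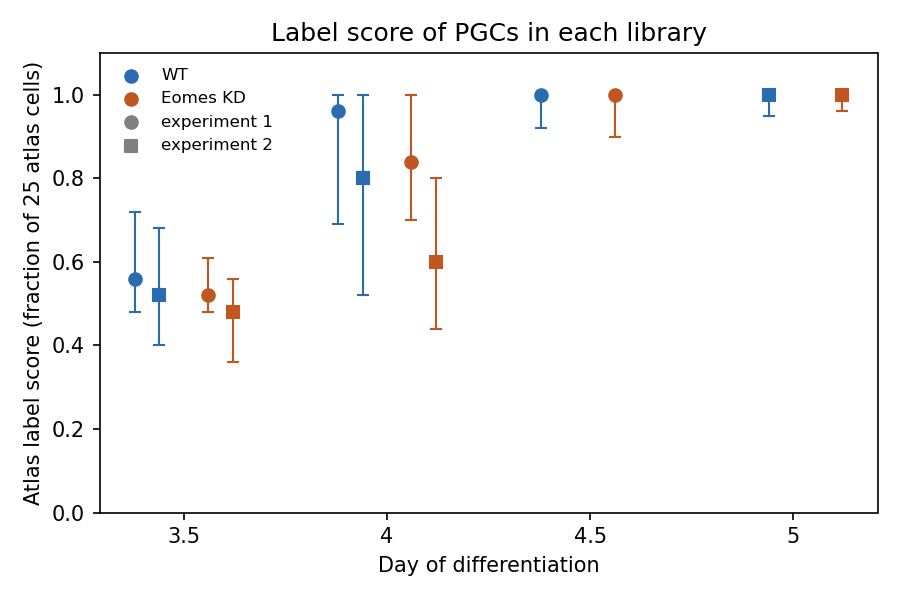
Atlas label score of PGCs, as the fraction of 25 nearest atlas cells with the called label (vertical axis), by day of differentiation; points are library medians, bars run from the lower to the upper quartile of cells, colours and symbols are condition and experiment. Medians run from 0.48 to 0.56 at day 3.5, from 0.60 to 0.96 at day 4 and are 1.00 at days 4.5 and 5.

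A PGC call could rest on a minority of atlas cells. In all, 242 PGCs (35.4%) had a score under 0.5, and 174 of these were from day 3.5. A score of 1.00 was reached by 77 PGCs (11.3%), of which 1 was from day 3.5, 48 were from day 4, 14 from day 4.5 and 14 from day 5. All of these 77 were also PGC in the extended annotation, against 83.9% of the cells with a score under 0.5. Both labels come from the same atlas cells, so this contrast is a description too. At day 4, the full score was held by 8 of 26 PGCs of WT and 13 of 31 of Eomes KD in experiment 1. In experiment 2 it was held by 27 of 84 in WT and 0 of 108 in Eomes KD. The low count in Eomes KD thus belonged to 1 of 2 experiments. Within a library, PGCs above the median RNA count had the higher median score in 6 of the 11 libraries with 10 or more PGCs and the lower in 2.

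The median label score was lower in Eomes KD than in WT in each of the 4 pairs of the same day and experiment at days 3.5 and 4, and equal at day 5. Over days, the mean difference was -0.067 (exact permutation test within days over 10 libraries, two-sided, p = 0.333, adjusted over 9 measures 0.812). The extended label score gave the same difference. Median RNA counts of PGCs moved with condition at day 3.5, where they were 17538 and 7817 in WT and 23092 and 13564 in Eomes KD. The other cells of these libraries differed alike, with medians of 17372 and 8212 in WT and 22128 and 12976 in Eomes KD. The part of depth in the scores was not tested.

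A single atlas cell was nearest to many of the PGCs. The 684 PGCs had 153 distinct nearest atlas cells, and the 26451 other cells had 3959. Of the 153, 1 was nearest to 182 PGCs (26.6%), while the most frequent nearest atlas cell of the other cells took 4.08% of them. The next most frequent was nearest to 49 PGCs, and 73 PGCs were alone on theirs. The leading atlas cell was largely a day 3.5 match. It held 34.3% and 31.6% of the PGCs of WT at day 3.5 and 54.2% and 56.5% of those of Eomes KD, so that the conditions did not overlap. At day 4 it held 3.85% and 1.19% in WT and 0% and 14.8% in Eomes KD, and no PGC of days 4.5 and 5. The same atlas cell was also nearest to 292 cells not called PGC, among them 104 nascent mesoderm, 77 surface ectoderm and 73 mixed mesoderm by first label. Such cells too were more frequent in Eomes KD at day 3.5, at 3.45% and 4.47% of the other cells against 1.05% and 1.17% in WT.

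PGCs of later days mapped to later atlas stages, as did the other cells of their libraries. The mean mapped stage of the other cells was 7.20 to 7.29 at day 3.5 and 7.56 to 7.90 at day 4. At day 5 it was 7.99 in WT and 8.17 in Eomes KD. PGCs mapped earlier on average than the rest in 9 of the 11 libraries with 10 or more PGCs. At day 3.5, 41.5% of PGCs mapped to E7.0 and 43.3% to E7.25 (embryonic days of the atlas). At day 4, 32.1% mapped to E7.25 and 26.9% to E7.75, and 14.1% and 16.1% to E7.0 and E7.5, with 10.0% at E8.0. At day 4.5, 48% mapped to E7.75, and at day 5, 45.5% mapped to E8.25 and 31.8% to E7.75. By library, the mean mapped stage at day 3.5 was 7.15 and 7.25 embryonic days in WT and 7.17 and 7.18 in Eomes KD. At day 4 it was 7.43 and 7.54 in WT and 7.53 and 7.40 in Eomes KD. At day 5 it was 8.02 in WT (12 PGCs) and 7.82 in Eomes KD (10 PGCs). The conditions overlapped at days 3.5 and 4, and the mean difference of -0.080 days did not exceed what reassigned labels gave (exact permutation test within days over 10 libraries, two-sided, p = 0.306). Without either library of day 5 it was -0.023 days.

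**Figure D3:**
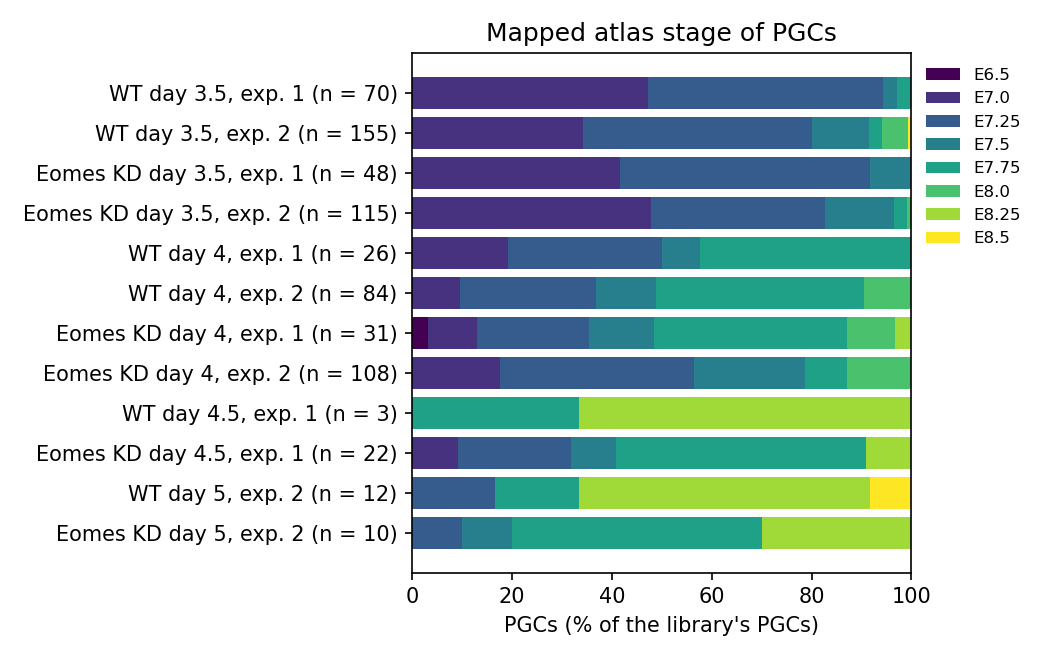
Mapped atlas stage of the PGCs of each library, as a percent of its PGCs (horizontal axis; the number of PGCs is beside each name), from E6.5 in dark purple to E8.5 in yellow. E7.0 and E7.25 make up at least 80.0% of PGCs in each library of day 3.5, and stages from E7.75 at least 59.1% in each library of days 4.5 and 5, of which WT day 4.5 had 3 PGCs.

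The 2 experiments went opposite ways at day 4. In experiment 1, 11 of 26 WT PGCs (42.3%) and 16 of 31 Eomes KD PGCs (51.6%) mapped to E7.75 or later. In experiment 2, these were 43 of 84 (51.2%) and 23 of 108 (21.3%). Among the other cells of the same libraries, 39.8% and 53.1% in WT and 79.4% and 75.7% in Eomes KD mapped to E7.75 or later. In Eomes KD the mean stage of PGCs was therefore 0.36 and 0.45 days below that of the other cells at day 4, and in WT 0.12 and 0.14 days below. At day 5 the Eomes KD PGCs lay 0.35 days below the rest and the WT PGCs 0.03 days above it. This distance was examined after its values were seen and was not tested.

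Before PGCs were set apart by label, 555 of the 684 (81.1%) belonged to clusters of the type Early-Mes EOi, 76 (11.1%) to posterior mesoderm and 28 to the primitive streak. At day 3.5, 93.8% were of the Early-Mes EOi clusters. At day 4 these held 61.0% and posterior mesoderm, which the study counts among its extraembryonic mesoderm types, held 27.7%. Of the 18 clusters that the authors made on MOFA factors of RNA and chromatin, 1 (cluster 6) held 479 PGCs (70.0%), cluster 8 held 58 (8.48%) and cluster 4 held 44 (6.43%). Cells with a score of 1.00 were in cluster 6 in 93.5% of cases, and cells with a score under 0.5 in 55.4%.

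Within cluster 6, PGCs were a minority at day 3.5 and nearly all cells at day 5, and the cluster itself was smaller at later days. At day 3.5, cluster 6 took up 6.30% and 10.3% of the cells in WT and 12.6% and 20.7% in Eomes KD. PGCs were 33.8% and 16.8% of its cells in WT and 14.3% and 16.9% in Eomes KD, in experiments 1 and 2. At day 4, cluster 6 took up 1.72% to 2.66% of the cells, and PGCs were 84.0% and 71.7% of its cells in WT and 68.0% and 67.1% in Eomes KD. At day 5 they were 11 of its 11 cells in WT and 6 of 7 in Eomes KD. Set against all cells of the Early-Mes EOi clusters, which were 15.5% and 19.5% of WT and 69.3% and 78.7% of Eomes KD at day 3.5, PGCs were 17.4% and 9.65% in WT and 3.54% and 5.39% in Eomes KD. At day 4 they were 55.3% and 37.8% in WT and 24.4% in both Eomes KD libraries. WT was the higher at both days with no overlap; these ratios were chosen after their values were seen and carry no test.

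The share of PGCs in cluster 6 was lower in Eomes KD than in WT in 5 of 5 pairs of the same day and experiment with 10 or more PGCs in both libraries. At day 3.5 it was 74.3% and 82.6% in WT and 70.8% and 80.9% in Eomes KD, and at day 4 80.8% and 51.2% in WT and 54.8% and 49.1% in Eomes KD. At day 5 it was 91.7% in WT and 60.0% in Eomes KD, on 12 and 10 PGCs. The pair of day 4.5, left out for its 3 PGCs in WT, went the other way (66.7% in WT and 86.4% in Eomes KD). Eomes KD minus WT averaged -16.1 percentage points (exact permutation test within days over 10 libraries, two-sided, p = 0.194), and the groups overlapped at both days with 2 libraries each. Without either library of day 5 it was -8.30 percentage points. With the labels permuted within pairs of the same experiment, a replicate block that allows no p below 0.0625, the exact p was 0.0625.

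On the deposited UMAP, PGCs of later days had more PGCs around them. Of the 25 nearest cells around a PGC, 43.6% were PGCs on average, against 2.52% of all cells of these days. Early-Mes EOi made up 37.8%, posterior mesoderm 7.56% and primitive streak 5.71%, while allantois precursors, which were 6.59% of cells, were 0.0234% of neighbours. The PGC part was 34.2% at day 3.5, 50.0% at day 4, 82.4% at day 4.5 and 92.2% at day 5. That of Early-Mes EOi was 53.1%, 20.2%, 6.24% and 2.73%. Most neighbours were PGCs for 268 PGCs (39.2%), and 74 PGCs had no PGC neighbour. The UMAP and the MOFA clusters rest in part on the RNA from which PGCs were called, so these levels are a description.

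In each of the same 5 pairs, the PGC share among UMAP neighbours was lower in Eomes KD. The pair of day 4.5, with 3 PGCs in WT, was not (81.3% in WT and 82.5% in Eomes KD). At day 3.5 the library means were 50.8% and 31.7% in WT and 41.2% and 24.3% in Eomes KD, at day 4 82.6% and 50.0% in WT and 59.0% and 39.6% in Eomes KD, and at day 5 97.7% and 85.6%. Experiment 1 was higher than experiment 2 in both conditions, so the conditions overlapped at days 3.5 and 4. Eomes KD minus WT averaged -12.5 percentage points (exact permutation test within days over 10 libraries, two-sided, p = 0.139; -7.10 without WT day 4 of experiment 1), and with the replicate block the exact p was again its smallest possible value, 0.0625. Counted among cells of the same library only, Eomes KD lay -15.8 percentage points from WT (exact permutation of labels within days, p = 0.0278, the smallest possible). That count is capped by the number of PGCs in the library, at 44% in WT and 36% in Eomes KD at day 5. The WT mean of day 5 lay at its cap, and the Eomes KD mean was 32.4%. The same count also depends on the makeup of the library. At day 3.5 the Early-Mes EOi clusters held 15.5% and 19.5% of WT cells and 69.3% and 78.7% of Eomes KD cells. The part of this makeup was not tested. This count was an alternative setting, and its p-value was not adjusted.

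**Figure D4:**
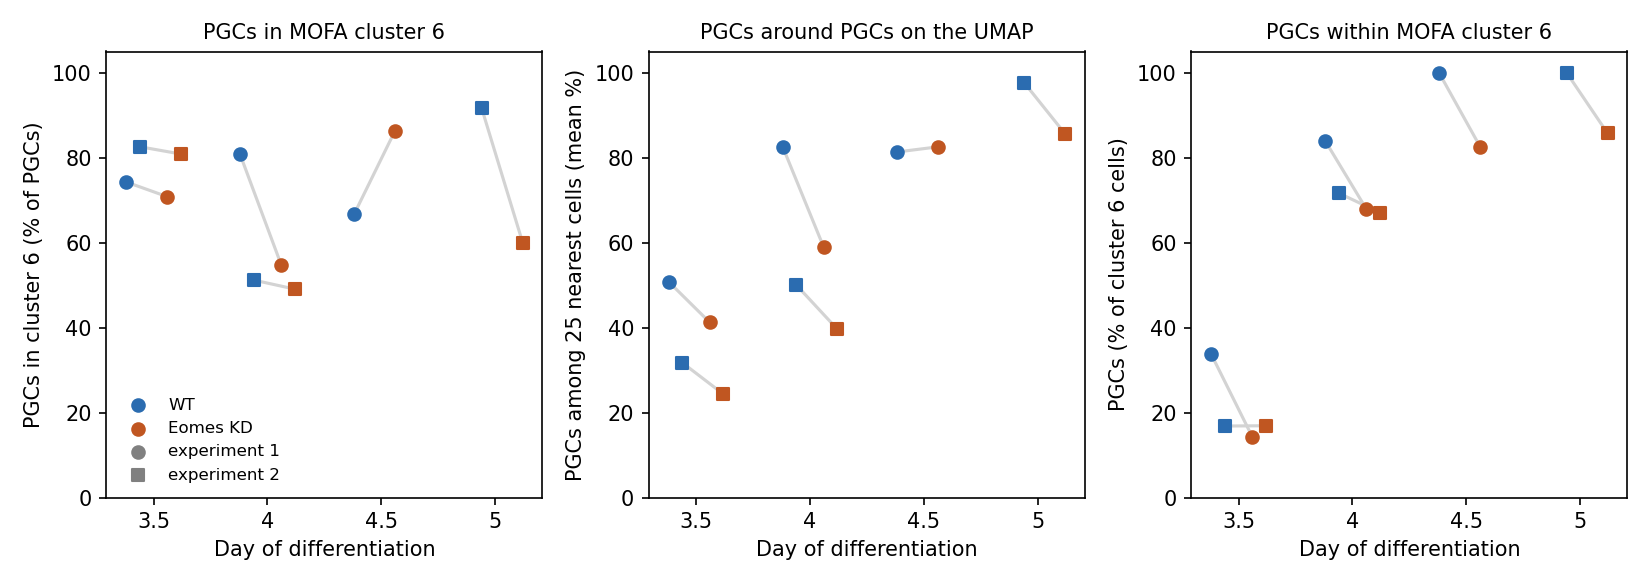
For each library by day of differentiation, the percent of PGCs in MOFA cluster 6 (left), the mean percent of PGCs among the 25 nearest cells on the UMAP (middle) and the percent of cluster 6 cells that are PGCs (right); blue is WT, orange Eomes KD, circles experiment 1, squares experiment 2, and grey lines join libraries of the same day and experiment. The left and middle values are lower in Eomes KD in 5 of 5 pairs outside day 4.5, where WT had 3 PGCs.

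PGCs had a higher share of RNA counts from ribosomal genes than all other cells of their library. At day 3.5 this did not hold in every library against primitive streak, posterior mesoderm and allantois precursors. These 3 types were chosen by origin or place in the embryo. Early-Mes EOi, to whose clusters 93.8% of the PGCs of day 3.5 belonged, was not among them and was not compared on its own. Against all other cells, the library median was higher in PGCs than in the rest of the same library in 11 of 11 libraries with 10 or more PGCs, by 1.69 percentage points on average (exact sign-flip permutation test over 11 libraries, two-sided, p = 0.000977, the smallest possible, adjusted over 6 measures 0.00586). At day 3.5, PGC medians were 12.1% and 8.73% in WT and 10.8% and 8.99% in Eomes KD, against 10.9% and 8.42%, and 10.2% and 8.40%, in the other cells. At day 4 they were 13.3% and 10.6% in WT and 12.7% and 9.72% in Eomes KD, against 10.7% and 9.19%, and 10.8% and 8.51%. At day 4.5 in Eomes KD the medians were 12.7% and 10.3%, and at day 5 9.37% against 7.54% in WT and 13.3% against 8.92% in Eomes KD. The gap was 0.31 to 1.18 points at day 3.5 and 1.22 to 2.56 points at day 4, with no overlap between these days. Against the mean of 25 cells of the same library matched on RNA count, the mean gap was 1.45 points (exact permutation test, adjusted p = 0.00195). Against primitive streak, posterior mesoderm and allantois precursors alone it was 1.22 points over the 11 libraries (exact permutation test, adjusted p = 0.0293), and it came from days 4 to 5. At day 3.5, where 388 of the 684 PGCs lay, the gap to these 3 types was 0.09 and -0.26 points in WT and 0.12 and -0.20 in Eomes KD, with PGCs lower in 2 of 4 libraries. It was 1.20 to 2.10 points at day 4, 1.84 in Eomes KD at day 4.5 and 2.07 and 3.37 at day 5. Per the study's methods, ribosomal protein and mitochondrial genes were left out of the label transfer, so the call did not use them.

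**Figure D5:**
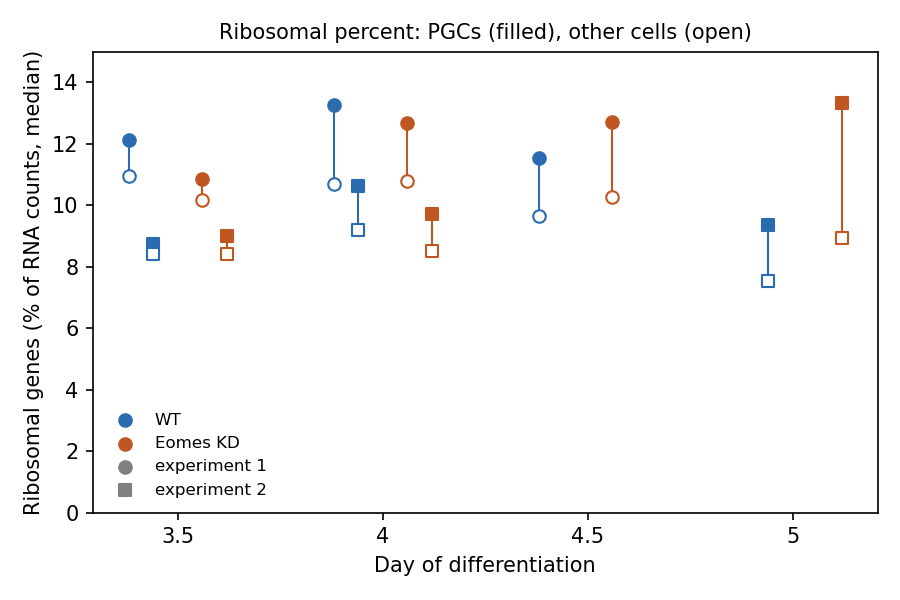
Median percent of RNA counts from ribosomal genes in PGCs (filled) and in all other cells of the same library (open), joined by a line, by day of differentiation; colours and symbols are condition and experiment. PGCs lie above the other cells in each library, by 0.31 to 4.42 percentage points in the 11 libraries with 10 or more PGCs.

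The mitochondrial percent was higher in PGCs in 8 of 11 libraries and lower in 2, by 0.885 percentage points on average (exact sign-flip permutation test, adjusted p = 0.0293). This call was lost, at adjusted p-values of 0.0547 to 0.0586, when any of 6 libraries was left out: WT day 3.5 of experiment 2, either WT library of day 4, Eomes KD day 4 of experiment 2, Eomes KD day 4.5 or Eomes KD day 5. The doublet score was lower in PGCs in 8 of 11 libraries, by 0.036 on average (exact sign-flip permutation test, adjusted p = 0.0332). Against the mean of 25 cells of the same library matched on RNA count, the difference was -0.078 (exact permutation test, adjusted p = 0.00195). This sets a median over PGCs against means, and the score is skewed. In WT at day 3.5, PGC means were 0.277 and 0.184 and medians 0.22 and 0.12. In Eomes KD at day 4.5 the mean was the lower (0.194 and 0.225). The matched value therefore cannot be read as a larger difference than -0.036. The call against all other cells was lost when any of 8 libraries was left out (exact sign-flip test, adjusted p of 0.0547 to 0.0664). These were the WT libraries of days 3.5, 4 and 5, Eomes KD day 4 of experiment 2, Eomes KD day 4.5 and Eomes KD day 5. Against primitive streak, posterior mesoderm and allantois precursors alone, the call was also lost (-0.021, exact permutation test, adjusted p = 0.252). RNA counts, genes detected and genes above those of cells with the same RNA count did not pass (mean differences of 297 counts, 53.7 genes and 15.4 genes; exact permutation test, adjusted p = 0.471 for each).

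Between conditions, none of the 9 measures per PGC passed the test, and no measure could have passed alone, since the smallest possible p becomes 0.25 when adjusted over 9 measures. Ribosomal percent differed by 0.90 percentage points and mitochondrial percent by 0.99, each with an adjusted p of 0.812 (exact permutation test within days over 10 libraries). Both averages were positive only with day 5 included. There the medians in Eomes KD and WT were 13.3% and 9.37% for ribosomal and 6.80% and 3.08% for mitochondrial genes. Over days 3.5 and 4 the averages were -0.63 percentage points for ribosomal and -0.38 for mitochondrial percent. At day 4 alone, the mean of library medians for mitochondrial percent was also higher in Eomes KD, at 8.45% against 7.35%. Eomes KD PGCs had 1860 more RNA counts and 304 more genes at the median on average, again without passing (exact permutation test within days, adjusted p = 0.812 for both). The depth of whole libraries moved with these values, as the medians of the other cells at day 3.5 show.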

How the data were processed

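The deposited table has 1 line per annotated nucleus of a 10x multiome assay of RNA and chromatin. Per the labels and methods, the authors used Cell Ranger ARC 2.0.1 with mm10, filtered nuclei and removed doublets, and transferred labels to each library separately. The RNA counts and genes per cell are counts that the authors deposited without normalization. The percent of counts from mitochondrial and from ribosomal genes was deposited per cell. The doublet score and the UMAP coordinates, also a score without unit, are as deposited. The label scores are a fraction of 25 atlas cells, as deposited. Nuclei of all libraries were mapped by library name to the labels, with 0 left over. Gene and chromatin values were not used here.

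PGCs are cells annotated PGC, and every test, list and alternative was chosen with earlier results of these data known. No gene was named from a test: the PGC value of each test was given, and each extended label, stage, MOFA cluster or neighbouring type that held 5% or more of PGCs, with a few smaller ones. Numbers of cells of each type were compared between libraries with edgeR 4.0.16 (R 4.3.3), by quasi-likelihood without trend, with annotated cells as library size and types of 10 or more cells. The SE of a log2 difference was taken as its size over the square root of the test's F. DESeq2 1.42.0 was an alternative. Library medians or means needed 10 or more PGCs, so that day 4.5 was left out between conditions, and were compared by exact permutation within days (72 arrangements) or sign flips over libraries (2048 arrangements). Tests were tested on simulated data. Replicate numbers of days 3.5 to 5 are the experiments, which the methods say were run weeks apart with both conditions collected together. This is the source of the pairing; deviations of cell type composition of same-numbered libraries had a Pearson correlation of 0.097 at day 3.5 and 0.82 at day 4 across 12 types. Python 3.11.15 with pandas 2.3.3, numpy 2.4.6, scipy 1.17.1 and matplotlib 3.10.9 was used.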

Additional observations from a re-analysis of the deposited data

Results flagged for a closer look

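In 3 measures of PGCs, every pair of libraries with 10 or more PGCs in both moved one way in 1 setting and the opposite way in the other. These differences were not tested, and with 2 or 3 pairs on a side they are given as values only. Mitochondrial percent was lower in Eomes KD than in WT in both pairs of day 3.5 (by -2.78 and -0.93 percentage points) and higher in both pairs of day 4 (0.15 and 2.04), a gap of 2.95 between the mean differences. Genes detected above those of cells with the same RNA count were higher in Eomes KD in both pairs of day 3.5 (16.1 and 18.6 genes) and lower in both of day 4 (-10.4 and -27.0), a gap of -36.03 genes. The mean mapped stage was later in Eomes KD in the pairs of days 3.5 and 4 of experiment 1 (0.013 and 0.10 days) and earlier in the 3 pairs of experiment 2 (-0.068 to -0.196 days), a gap of -0.1895 days. The pair of day 4.5 in experiment 1, with 3 PGCs in WT, was left out of this and went the other way (-0.49 days).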

How the results depend on the processing

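Of 228 recomputed values that left out 1 library that took part in the comparison, 201 kept direction and call. Of 125 values under other settings, 109 did. Part of these values could not change, so the counts are no measure of firmness. A minimum of 5 PGCs a library kept the same libraries, and permuting within pairs kept each difference. Most main results were not calls, and between conditions none of the 9 measures could have passed alone. Leaving yolk sac path types out of the total gave log2 differences of -0.70 over days, -1.19 at day 3.5 and -0.29 at day 4, and PGCs with a label score of 0.6 or more gave -0.12 over days. TMM factors turned the Eomes KD step from day 4 to day 4.5 to 0.48, and gave 0.03 at day 3.5 and 2.24 at day 4.5. DESeq2 called 10 of 48 types by day, where edgeR called 0. Without 1 library each, the log2 share difference ranged from 0.10 to 0.45 over days, from 0.05 to 0.80 at day 3.5 and from -0.18 to 0.69 at day 4, and the step from day 3.5 to day 4 from -0.46 to 0.27 in WT and from -0.69 to 0.19 in Eomes KD. Between conditions, leave-one-out ranges were -166 to 3886 for RNA counts, -0.38 to 1.58 for mitochondrial percent, -0.63 to 1.47 for ribosomal percent -0.013 to 0.010 for the stage score, -0.11 to -0.027 for the label score, -3.68 to -1.47 points for the same extended call, -0.10 to -0.023 days for the mapped stage, -21.0 to -8.30 points for cluster 6 and -18.0 to -7.10 points for UMAP neighbours. With 20 or more PGCs a library, and equally with days 3.5 and 4 only (chosen after seeing the data), the differences between conditions were -0.38 for mitochondrial percent, -0.63 for ribosomal percent and 0.010 for the stage score. Against the rest of the library, leave-one-out ranges were 0.78 to 1.01 for mitochondrial percent, -0.042 to -0.032 for the doublet score and 1.41 to 1.82 for ribosomal percent. With 20 or more PGCs a library, RNA counts differed from the rest by -57.4, genes by -10.3 and the doublet score by -0.030 (exact permutation test, adjusted p = 0.125). Against primitive streak, posterior mesoderm and allantois precursors, the doublet score differed by -0.021. Among cells of the same library, the UMAP neighbour share differed by -15.8 percentage points (exact permutation test, unadjusted p = 0.0278). That count is capped by the number of PGCs and depends on the makeup of the library. The cause of these changes was not tested. With the experiment as replicate block, the log2 share difference over days was 0.23, and the block changed no call. Libraries with few PGCs limit days 4.5 and 5: 3 cells in WT at day 4.5 and 10 to 22 in the others.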

Other observations

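WT and Eomes KD PGCs of the same day lay among each other on the UMAP. At day 3.5, where 42.0% of PGCs were Eomes KD, the 10 nearest PGCs were Eomes KD in 41.3% of cases around WT cells and 48.5% around Eomes KD cells. At day 4, where 55.8% were Eomes KD, these values were 54.0% and 56.0%. They pool the libraries of a condition and carry no test.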
